A study of Mus musculus with 8 samples.

Results

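The genes described here encode the chaperones, disulfide isomerases and degradation machinery of the endoplasmic reticulum (ER) and the sensors of the unfolded protein response (UPR), followed in liver of Pemt-/- and Pemt+/+ mice on a high fat-high sucrose (HFHS) diet. They were 34 genes on a given list out of the 18193 genes with a probe set of a single gene on the array. All 34 were found, 1 of them (Ero1l, now Ero1a) through an older symbol, in 81 probe sets, of which 76 were bright enough to be tested. Pemt encodes phosphatidylethanolamine N-methyltransferase, an enzyme of the ER and of mitochondria that makes phosphatidylcholine from phosphatidylethanolamine. The Pemt-/- mice lack this enzyme in the whole body, and the Pemt+/+ mice are wild type. Mice of both genotypes were male, received the same HFHS chow, and gave liver RNA after 1, 2, 3 and 4 weeks. No array of mice on standard chow was used here, and the age at the start of the diet is not given in the sources used here. Each genotype had 4 Affymetrix arrays, 1 at each week. Because the labels do not say if 1 mouse or a pool was hybridised to each array, p-values cover no more than the spread among the arrays, taken at different weeks. Precision is limited by there being few arrays.

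Secreted and membrane proteins fold in the ER with the help of Hsp70 and Hsp90 family chaperones, of lectin chaperones that hold N-glycosylated clients, and of enzymes that form disulfide bonds. Proteins that do not fold are drawn back into the cytosol and degraded, a route called ER-associated degradation. The kinase and RNase encoded by Ern1, the kinase PERK encoded by Eif2ak3, and the membrane-bound factor Atf6 sense unfolded proteins. Ern1 acts through splicing of Xbp1 mRNA, PERK through reduced translation and the factors Atf4 and Ddit3, and Atf6 through its cleaved fragment. Hepatocytes secrete most plasma proteins and are rich in these genes. The arrays measure mRNA and show neither the splicing of Xbp1 nor the activity of a sensor.

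The Pemt probe set, for the targeted gene, read 224 ± 26.4 in Pemt-/- arrays and 5543 ± 437 in Pemt+/+ arrays (mean ± SD of intensity, n = 4 each). It is not known whether this probe set falls inside the deletion. Intensities are the deposited linear values, which the authors scaled to a trimmed mean of 500.0 on each array, and the upper quartile lay between 384 and 425 on the Pemt-/- arrays and between 363 and 370 on the Pemt+/+ arrays. All 11 hepatocyte markers measured were bright, with Alb at 36768 and 45531 on average in Pemt-/- and Pemt+/+. Of these markers 10 passed the test as lower in Pemt-/-, while 11 of 12 macrophage markers, 10 of 10 stellate and myofibroblast markers and 6 of 6 proliferation markers were higher. Of all genes tested, 7.51% passed as lower and 12.6% as higher. The summed hepatocyte signal was 340100 to 429700 on Pemt-/- arrays and 471200 to 504400 on Pemt+/+ arrays. In bulk liver, fewer cells of a type and less RNA per cell cannot be told apart.

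Over the 4 weeks 12 of the 34 genes were lower in Pemt-/- liver, 1 was higher and 21 were not called, taking for each gene its brightest probe set, that is the one with the highest mean (limma with the week in the model, Benjamini-Hochberg adjusted p under 0.05 over 27022 probe sets). Among the 12949 genes tested, 7.51% were called lower and 12.6% higher. Over all 76 member probe sets tested, 19 were lower and 2 higher, against 5.86% and 10.3% of all probe sets. The lower genes were Derl3, Os9, Pdia3, Pdia6, Calr, Derl2, Pdia5, Dnajb11, Xbp1, Ern1, Vcp and P4hb, and the higher gene was Eif2ak3. The median log2 difference (Pemt-/- minus Pemt+/+, log2 of intensity + 16) of the 34 genes was -0.24, and that of all genes tested was 0.02. Most members read above the upper quartile of the arrays, and the comparison with all genes was not matched for brightness. A part of brightness in the difference of the 34 genes was not tested. For 13 of the genes the 4 Pemt-/- arrays all lay below the 4 Pemt+/+ arrays, which held for 10.4% of all genes, and for 1 gene they all lay above, which held for 15.2%. The Pemt-/- array was the lower one in all 4 weeks for 16 genes, against 18.2% of all genes, and the higher one in all 4 weeks for 1 gene, against 23.6%. The direction of P4hb turned under quantile normalization and that of Vcp with the mean of its probe sets. Of all probe sets called, 63.8% were higher, and with each array centred on the median of the probe sets tested 37.6% were. That centring moved the median difference of all probe sets to -0.14, in place of 0.02, and gave 18 lower members and 1 higher. The lower members numbered 6 under quantile normalization, 3 with eBayes without the intensity trend, and 7, 10, 4 and 7 without weeks 1, 2, 3 and 4. The share of all genes called lower was not counted under these other settings, so the member counts cannot be set against it.

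**Figure D1:**
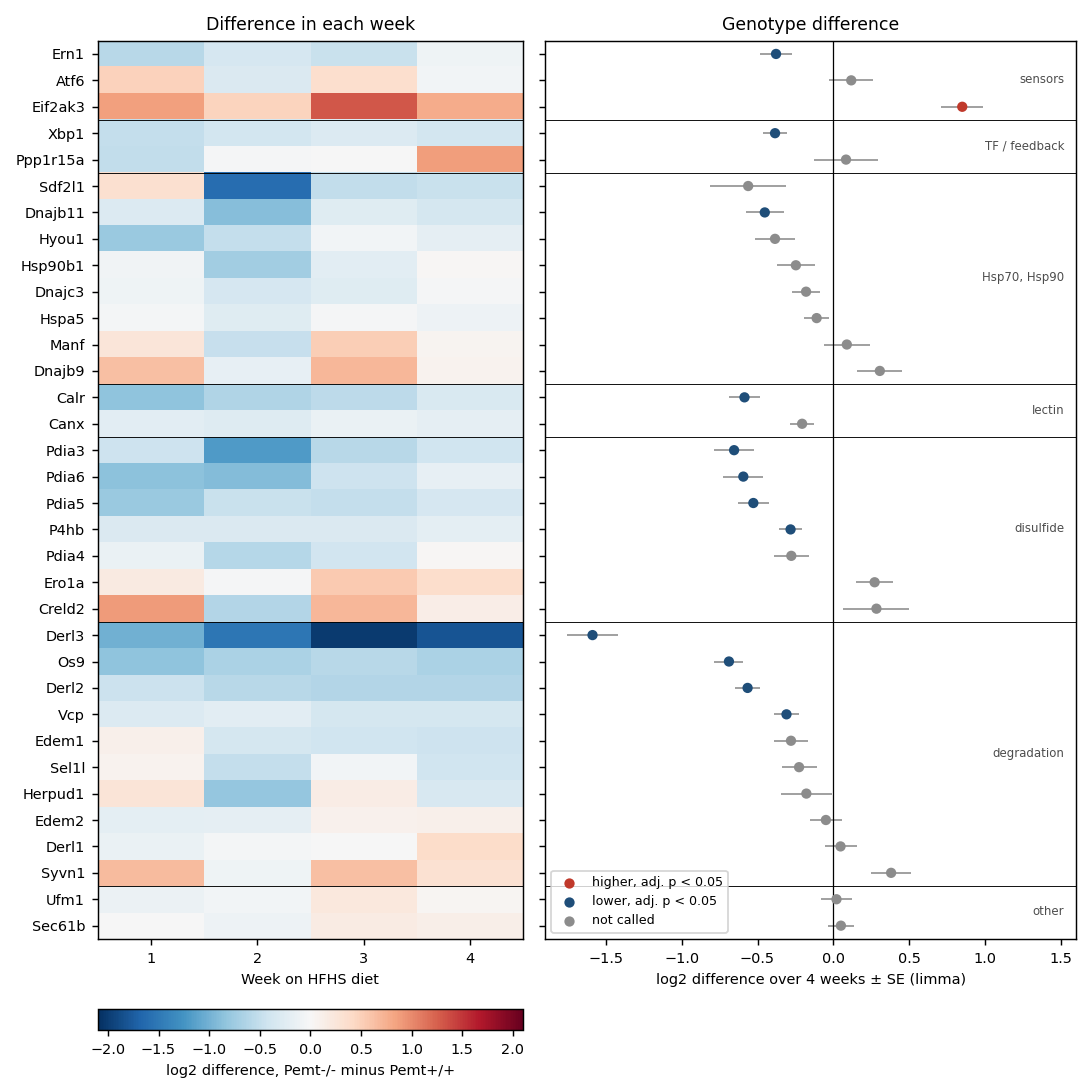
Left, log2 difference of intensity between the Pemt-/- and the Pemt+/+ array of each week for the 34 genes, grouped by role (blue, lower in Pemt-/-). Right, the difference over 4 weeks with its SE from limma, coloured by call. Derl3 lies farthest to the left at -1.59, Eif2ak3 is the 1 gene called higher, and at week 2 the cells of 33 genes are below 0. Each gene is shown by its brightest probe set.

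ER chaperone genes are known targets of Atf6 and Xbp1 through the ER stress response element (ERSE), so the promoters of the members were searched for it. In the RefSeq promoters of build GRCm38.p6 (250 bases before to 50 after each start), 30 of the 34 genes had an entry. Atf6, Manf, Hyou1 and Derl1 are named only. The ERSE, which is CCAAT and CCACG with 9 bases of any kind between them, sought on both strands, was in 9 of these 30 genes and in 0.119% of all 32851 promoters. The ERSE-II, which is ATTGG and CCACG with 1 base of any kind between them, was in 2 of 30 and in 0.0365% of promoters. The UPRE core TGACGTGG, whose last 5 letters are the reverse complement of the end of both other motifs, was in Vcp alone among the members and in 0.676% of promoters. A match describes the letters and is not shown here to be a site in use. The 250 bases before the start of Derl3, the gene with the largest difference of the 34, are shown with the ERSE in capitals, here on the opposite strand 156 to 138 bases before the start.
Derl3, chr10:75893148-75893397, + strand: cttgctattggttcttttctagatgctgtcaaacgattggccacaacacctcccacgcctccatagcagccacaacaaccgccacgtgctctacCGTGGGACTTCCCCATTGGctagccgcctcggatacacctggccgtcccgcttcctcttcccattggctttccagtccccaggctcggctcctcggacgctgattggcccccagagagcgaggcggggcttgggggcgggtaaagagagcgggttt
The matches in the other members are shown with 20 bases on each side, or 5 in Dnajb11, where the match lies after the start. They are shown because the same element stands before genes that were called and genes that were not, and the capitals are the ERSE, or the ERSE-II in Herpud1 and Dnajb11, and Hsp90b1 has 2 matches. In Calr, Creld2 and the second line of Hsp90b1 the element runs on the opposite strand, so that the capitals read as its reverse complement.
Hspa5, chr2:34772005-34772063, + strand: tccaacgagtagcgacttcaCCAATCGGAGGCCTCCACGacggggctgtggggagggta
Calr, chr8:84847055-84847113, - strand: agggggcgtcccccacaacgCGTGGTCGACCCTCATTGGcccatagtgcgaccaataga
Hsp90b1, chr10:86705618-86705676, - strand: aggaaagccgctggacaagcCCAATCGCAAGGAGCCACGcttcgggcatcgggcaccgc
Hsp90b1, chr10:86705513-86705571, - strand: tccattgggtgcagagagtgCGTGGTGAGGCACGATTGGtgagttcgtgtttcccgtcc
Canx, chr11:50325780-50325838, - strand: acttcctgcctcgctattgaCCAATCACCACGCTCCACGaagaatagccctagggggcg
Pdia6, chr12:17266471-17266529, + strand: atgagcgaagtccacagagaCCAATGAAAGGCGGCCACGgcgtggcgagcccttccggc
Dnajc3, chr14:118937807-118937865, + strand: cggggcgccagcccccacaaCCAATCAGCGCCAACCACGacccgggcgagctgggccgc
Creld2, chr15:88819500-88819558, + strand: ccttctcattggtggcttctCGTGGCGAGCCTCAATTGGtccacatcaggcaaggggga
Syvn1, chr19:6046512-6046570, + strand: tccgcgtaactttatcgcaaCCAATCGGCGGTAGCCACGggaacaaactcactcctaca
Herpud1, chr8:94386357-94386407, + strand: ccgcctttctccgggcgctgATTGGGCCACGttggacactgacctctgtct
Dnajb11, chr16:22857847-22857867, + strand: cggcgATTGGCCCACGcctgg
Of the 11 genes with an ERSE or ERSE-II, 4 (Calr, Derl3, Pdia6 and Dnajb11) were called lower and 7 were not called. Of the 19 other members with a promoter entry, 8 were called lower and 1 higher. Of all genes tested, 7.51% were called lower and 12.6% higher. The week 2 difference of the 11 ran between -1.52 and -0.09 with a median of -0.63, and that of the 19 between -1.60 and 0.46 with a median of -0.35. These are descriptions, and the 2 sets overlapped over most of their range.

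Among the 3 sensors, Eif2ak3 was higher, Ern1 was lower and the brightest Atf6 probe set was not called. Eif2ak3, which encodes PERK, read 1924, 1592, 1882 and 1889 at weeks 1 to 4 in Pemt-/-, against 1054, 1153, 757 and 1095 in Pemt+/+. Every Pemt-/- array lay above every Pemt+/+ array, and the widest gap was at week 3, where the Pemt+/+ array was low. The log2 difference was 0.85 ± 0.14 (SE, adjusted p = 0.00544), a 1.80-fold rise, and the call was kept without each week in turn. It was lost with the mean of the Eif2ak3 probe sets, the other 2 of which were too dim to be tested. The ratio at week 3, 2.49, was the 1 ratio of 2 or more among the brightest probe sets of the members, while several dimmer ones reached 2, the called Atf6 probe set below among them (2.17 and 2.60 at weeks 3 and 4). Of all genes, by the brightest probe set, 7.58%, 6.21%, 10.9% and 10.6% had such a ratio at weeks 1 to 4. Ern1 read 2219, 2417, 2391 and 3033 in Pemt-/-, against 3348, 3083, 3329 and 3248 in Pemt+/+. The Pemt-/- array of week 4 came close to the lowest Pemt+/+ array without overlap. Its log2 difference was -0.38 ± 0.11 (SE, adjusted p = 0.0445), and the call was lost without any 1 of the weeks (adjusted p = 0.0561 to 0.191). Its 3 other tested probe sets, all dim, were not called and had log2 differences of -0.33, -0.12 and 0.38. The mean of the Ern1 probe sets gave -0.08 (adjusted p = 0.792), and the call was also lost with no filter, under quantile normalization, median centring, eBayes without the trend and the methods' t-test (adjusted p = 0.0504 to 0.131). The brightest probe set of Atf6 had a log2 difference of 0.12 ± 0.14 (SE, adjusted p = 0.627). A dim Atf6 probe set read 243, 186, 200.3 and 233 in Pemt-/- and 191, 131, 92.2 and 89.5 in Pemt+/+, and was called higher (0.76 ± 0.20 SE, adjusted p = 0.0364). Its Pemt+/+ array of week 1 lay inside the Pemt-/- range, and the call was lost without weeks 1, 3 or 4 and under 5 other settings. The third Atf6 probe set, at 0.35 ± 0.11 SE, missed the threshold (adjusted p = 0.0642).

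Xbp1, the transcription factor downstream of Ern1, was lower in 3 of its 4 probe sets. The brightest read 15749, 17537, 16894 and 16688 in Pemt-/- and 22306, 22796, 20509 and 21701 in Pemt+/+. The groups stood well apart, and neither moved much over the weeks. The log2 difference was -0.38 ± 0.08 (SE, adjusted p = 0.0148), 1.31-fold lower, and the call was lost without weeks 1, 3 or 4 (adjusted p up to 0.0723). Under quantile normalization it was -0.17 (adjusted p = 0.145), and the second Xbp1 probe set was -0.19 (adjusted p = 0.21). The dimmest of the called Xbp1 probe sets had a log2 difference of -0.61 ± 0.12 (SE, adjusted p = 0.00970). Ppp1r15a, the phosphatase subunit that ends the PERK signal on translation, was not called over the 4 weeks (0.08 ± 0.21 SE, adjusted p = 0.826). It read 209, 340, 424 and 697 in Pemt-/-, against 305, 344, 427 and 374 in Pemt+/+. The order of the genotypes thus changed between week 1 and week 4, and Ppp1r15a was chosen here after its values were seen.

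**Figure D2:**
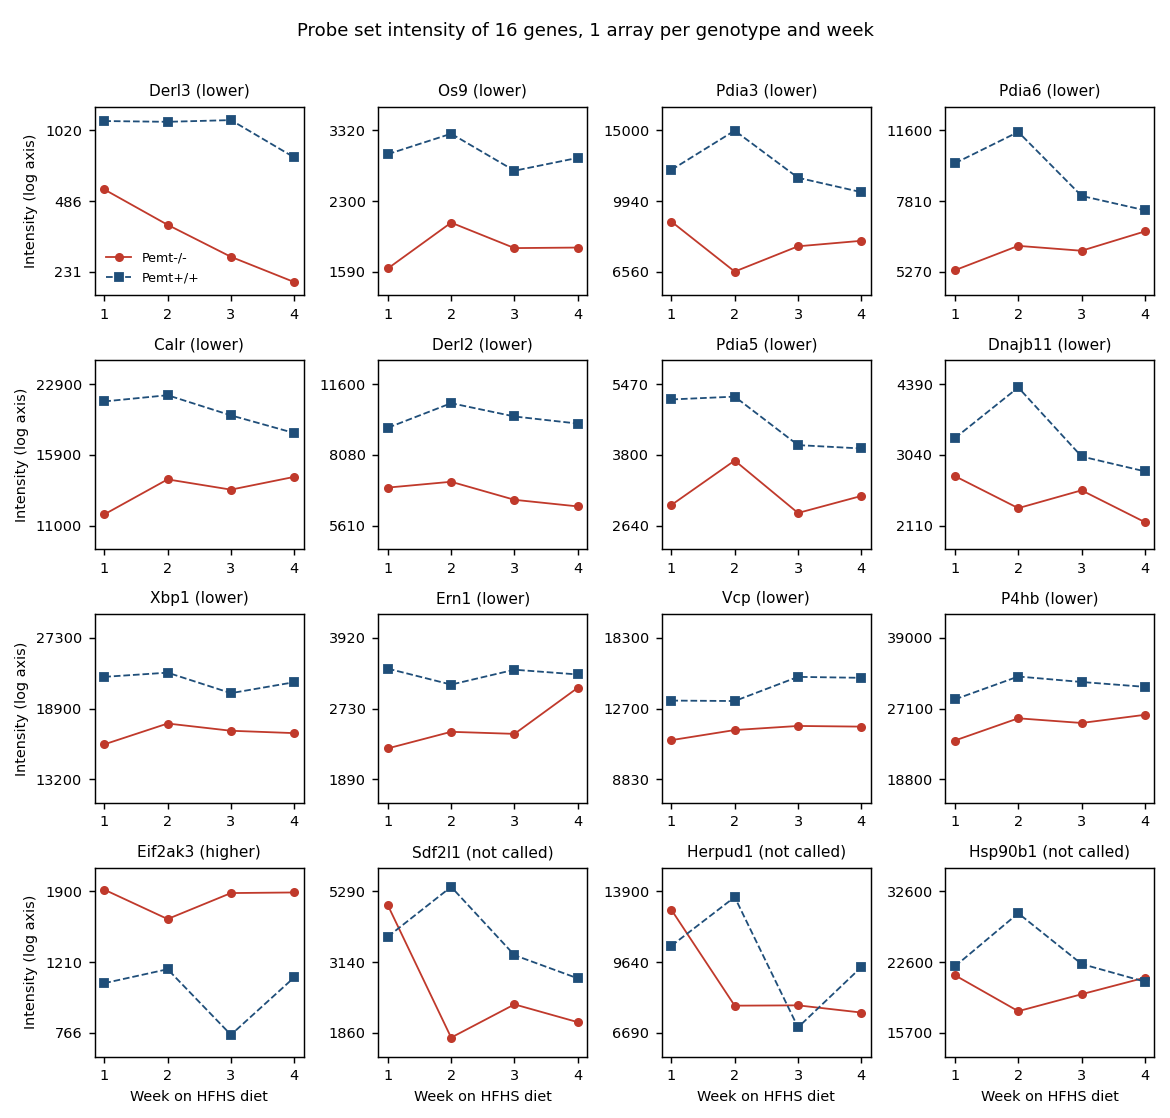
Probe set intensity (log axis, scale differs between panels) by week on the HFHS diet in Pemt-/- (circles, solid line) and Pemt+/+ (squares, dashed line), 1 array per point, for the 12 genes called lower, Eif2ak3 and the 3 other genes among the 8 with the largest week 2 difference. Derl3 falls week by week in Pemt-/-, and Sdf2l1, Herpud1 and Hsp90b1 cross or meet at some weeks and part at week 2.

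Of the 8 Hsp70 and Hsp90 family chaperones and their partners, only Dnajb11 was called in its brightest probe set, as lower. Of all genes tested, 7.51% were called lower. Dnajb11 is a co-chaperone of Hspa5. It read 2723, 2307, 2530 and 2146 in Pemt-/-, against 3316, 4311, 3015 and 2791 in Pemt+/+. All Pemt-/- arrays were lower, though the Pemt-/- array of week 1 was within reach of the Pemt+/+ array of week 4. The log2 difference was -0.45 ± 0.12 (SE, adjusted p = 0.0401), and the call was lost without any 1 of the weeks (adjusted p = 0.071 to 0.107). Hspa5, the abundant ER Hsp70, read 28253, 26995, 25989 and 26344 in Pemt-/-, against 29058, 32317, 26546 and 28468 in Pemt+/+. The groups overlapped, and its log2 difference of -0.11 ± 0.08 (SE, adjusted p = 0.406) did not pass. Hspa5 was described after its values were seen, as the central chaperone of the list. Hsp90b1, the ER Hsp90, read 21166, 17587, 19190.4 and 20904 in Pemt-/-, against 22158, 29137, 22434 and 20476 in Pemt+/+. The 2 genotypes were level at weeks 1 and 4 and apart at week 2, and the difference over 4 weeks was -0.25 ± 0.13 (SE, adjusted p = 0.221). Dnajc3, a co-chaperone and an inhibitor of PERK, was not called in its brightest probe set (-0.18 ± 0.09 SE, adjusted p = 0.222). A dimmer Dnajc3 probe set read 2186, 2064, 2131 and 2213 in Pemt-/-, against 2701, 3176, 2764 and 2626 in Pemt+/+, without overlap. It was called lower (-0.38 ± 0.10 SE, adjusted p = 0.0336), and was lost without any 1 of the weeks. The others, Sdf2l1, Hyou1, Manf and Dnajb9, were not called, with log2 differences between -0.56 and 0.31.

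Calr, the calcium-binding lectin chaperone calreticulin, was lower in all 3 of its probe sets. The brightest read 11673, 13983, 13262 and 14166 in Pemt-/-, against 20902, 21583, 19453 and 17758 in Pemt+/+. The gap was widest at week 1 and narrowest at week 4, without overlap. The log2 difference was -0.59 ± 0.10 (SE, adjusted p = 0.00613), a 1.50-fold lower level, and this call was kept without each week. Its membrane-bound relative Canx had 4 Pemt-/- arrays between 15392 and 16319 and 4 Pemt+/+ arrays between 17780 and 19450.4. The groups did not overlap, but the log2 difference of -0.21 ± 0.08 SE did not pass (adjusted p = 0.112).

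Of the 7 genes of disulfide formation, 4 isomerases were lower, against 7.51% of all genes. Pdia3, which works with the lectin chaperones on glycoproteins, read 8813, 6574, 7624 and 7874 in Pemt-/-, against 11934, 15025, 11397 and 10474 in Pemt+/+. It was lower in each week, most at week 2, when the Pemt-/- array was the lowest and the Pemt+/+ array the highest of all 8. Its log2 difference was -0.65 ± 0.13 (SE, adjusted p = 0.0128), or 1.57-fold lower. A dim second Pdia3 probe set was not called (-0.26 ± 0.16 SE, adjusted p = 0.321). Pdia6, an isomerase that binds Hspa5, read 5319, 6091, 5927 and 6600 in Pemt-/-, against 9636, 11465, 8038 and 7422 in Pemt+/+. The gap was narrower at weeks 3 and 4, with the Pemt-/- arrays higher and the Pemt+/+ arrays lower than at week 1. Its log2 difference was -0.59 ± 0.13 (SE, adjusted p = 0.0175). A dim second Pdia6 probe set was at 0.03 ± 0.26 (SE, not called), and the mean of both gave -0.28 (adjusted p = 0.286). Pdia5 read 2933, 3688, 2815 and 3073 in Pemt-/-, against 5054, 5128, 3994 and 3925 in Pemt+/+ (log2 difference -0.53 ± 0.10 SE, adjusted p = 0.00966). P4hb, the classical isomerase PDI, read 22957, 25741, 25128 and 26209 in Pemt-/-, against 28381, 31932, 31042 and 30274 in Pemt+/+ (-0.28 ± 0.08 SE, adjusted p = 0.0398). For both the groups stood apart in every week, by a wider margin in Pdia5. Without week 3 none of these 4 calls was kept, Pdia6 was also lost without week 1, and P4hb also without weeks 1 and 4. Under quantile normalization Pdia3 (-0.49, adjusted p = 0.0517), Pdia6 (-0.46, adjusted p = 0.0569) and P4hb (0.01, adjusted p = 0.947) were lost, and without the eBayes trend all 4 were. Pdia4, the oxidase Ero1a and Creld2 were not called, at log2 differences between -0.28 and 0.28.

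ER-associated degradation held the largest difference of the list. Derl3, a derlin of the membrane channel through which misfolded proteins leave the ER, read 549, 379, 271 and 208 in Pemt-/-, against 1124, 1115, 1135 and 768 in Pemt+/+. The Pemt-/- arrays were lower at each later week, whereas the first 3 Pemt+/+ arrays were level and the array of week 4 was lower. The log2 difference was -1.59 ± 0.17 (SE, adjusted p = 0.00116), or 3.00-fold lower. The ratio of Pemt-/- to Pemt+/+ was 0.488, 0.340, 0.239 and 0.271 at weeks 1 to 4, and a ratio of 0.5 or less was seen in 3.7%, 4.83%, 5.17% and 5.67% of all genes in those weeks. Derl2, another derlin, read 6823, 7032, 6407 and 6192 in Pemt-/-, against 9290, 10544, 9846 and 9492 in Pemt+/+. The gap was steady, and Derl2 was 1.48-fold lower (-0.57 ± 0.08 SE, adjusted p = 0.00346). A dimmer Derl2 probe set was not called (-0.27 ± 0.11 SE, adjusted p = 0.128). Os9, a lectin that hands misfolded glycoproteins to the ubiquitin ligase, read 1621, 2057, 1802 and 1807 in Pemt-/-, against 2934, 3262, 2692 and 2878 in Pemt+/+. Both genotypes were highest at week 2 and the groups stood apart in every week. Os9 was 1.61-fold lower (-0.69 ± 0.10 SE, adjusted p = 0.00271). Its other, dimmer probe set was not called (-0.09 ± 0.11 SE, adjusted p = 0.613). Derl3, Derl2 and Os9 were the 3 genes whose brightest probe set was called under every alternative run.

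Vcp, the cytosolic ATPase that pulls clients out of the membrane, read 10805, 11382, 11625 and 11585 in Pemt-/-, against 13249, 13220, 14973 and 14899 in Pemt+/+. The groups did not overlap, with a log2 difference of -0.31 ± 0.08 (SE, adjusted p = 0.0336) that was lost without weeks 1, 3 or 4. It was -0.13 under quantile normalization (adjusted p = 0.246) and 0.11 as the mean of its probe sets (adjusted p = 0.521). A dim second Vcp probe set was at 0.53 ± 0.21 (SE) and was not called (adjusted p = 0.116). Sel1l, the adaptor of the ligase Syvn1, was not called in its brightest probe set (-0.23 ± 0.12 SE, adjusted p = 0.224) but was lower in 2 of the 4 others. The brighter of those read 1453, 1155, 1037 and 912 in Pemt-/-, against 1853, 1768, 1458 and 1349 in Pemt+/+ (-0.50 ± 0.10 SE, adjusted p = 0.0126). The dimmer read 434, 281, 323 and 246 in Pemt-/-, against 584, 500.0, 451 and 422 in Pemt+/+ (-0.60 ± 0.13 SE, adjusted p = 0.0176). In both probe sets the array of week 1 was the highest of each genotype, and the Pemt-/- array of week 1 reached into the Pemt+/+ range. Different probe sets of Sel1l therefore gave different answers. Herpud1, Edem1, Edem2, Derl1 and Syvn1 were not called, with log2 differences between -0.28 and 0.38. The translocon subunit Sec61b and the ubiquitin-like modifier Ufm1 differed by 0.05 ± 0.09 and 0.02 ± 0.10 (SE), and neither was called.

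Among the differences within weeks, each of which rests on 1 array per genotype, those of week 2 were the lowest. Week 2 was named with earlier results of these data known, so its counts describe these data and are no independent test. At week 2, by the brightest probe set, 33 of the 34 genes were below 0 and the exception was Eif2ak3, while 49.2% of all genes tested were below 0. Among dimmer probe sets tested, some of Atf6 (0.46 and 0.38), Hspa5 (0.56), Ufm1 (0.30), Ern1 (0.27) and Canx (0.02) were above 0. The other dimmer probe sets tested were below 0. The number below 0 was 23, 33, 23 and 21 at weeks 1 to 4. The median difference was -0.14, -0.37, -0.19 and -0.14 at weeks 1 to 4, and that of all genes tested lay between 0.01 and 0.03. At week 2, 13 genes were lower by more than 0.5, against 13.2% of all genes. At that week 3 genes, Sdf2l1, Derl3 and Pdia3, had a ratio of 0.5 or less, against 4.83% of all genes, and none had a ratio of 2 or more. For 20 of the 34 genes week 2 held the lowest of the 4 differences, which was so for 32% of all genes. With each array centred on the median of all its probe sets, the number below 0 at week 2 was 28, and the share of all genes was 40.2%.

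Sdf2l1, a partner of the Hspa5 co-chaperones, showed the largest week 2 difference. It read 4776, 1799, 2298 and 2016 in Pemt-/-, against 3786, 5470, 3304 and 2784 in Pemt+/+. At week 2 the Pemt-/- array was the lowest and the Pemt+/+ array the highest of the 8, and at week 1 Pemt-/- was the higher genotype. Herpud1, a membrane protein of the degradation complex, read 12637, 7706, 7719 and 7438 in Pemt-/-, against 10493, 13490, 6891 and 9404 in Pemt+/+. Its Pemt-/- array of week 1 and its Pemt+/+ array of week 2 were alike high, and the other arrays of each genotype were lower. Creld2 and Manf, a disulfide isomerase and a secreted partner of Hspa5, were chosen after their values were seen. Creld2 read 5679, 3105, 3367 and 3085 in Pemt-/-, against 3037, 4760.0, 2066 and 2785 in Pemt+/+. Manf read 11833, 9166, 8824 and 9420.5 in Pemt-/-, against 9892, 12896, 6138 and 9011 in Pemt+/+. In both, the Pemt-/- arrays were higher at weeks 1, 3 and 4 and lower at week 2.

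The difference of each week was tested against the mean of the other 3 weeks in a fit over all probe sets. For week 2 no member was called lower or higher (lowest adjusted p = 0.337), and neither was any of the 27022 probe sets. At an unadjusted p under 0.05, 9 of the 34 genes were lower at week 2 than in the other weeks, against 5.78% of all genes, and none was higher, against 5.55%. They were Hsp90b1, Dnajb9, Dnajb11, Herpud1, Sdf2l1, Pdia3, Creld2, Manf and Syvn1. Sdf2l1 was lower by -1.38 ± 0.34 and Creld2 by -1.20 ± 0.29 on the log2 scale (SE), with adjusted p = 0.354 and 0.356. In the same fit, week 1 gave 3 genes that were higher at an unadjusted p under 0.05 (Edem1, Sdf2l1 and Derl3; 2.35% of all genes), week 4 gave 1 (Ppp1r15a; 1.85%) and week 3 gave none (2.15%). None was lower in weeks 1, 3 and 4 (2.67%, 1.1% and 1.71% of all genes), and none passed after adjustment, as 0.0232% of all genes did for week 4. Without week 1 the week 2 fit called Sdf2l1 (-1.10 ± 0.17 SE, adjusted p = 0.0202) and Pdia3 (-0.70 ± 0.14 SE, adjusted p = 0.0453). Without week 2, the genotype fit called Dnajb9, Creld2 and Syvn1 higher beside Eif2ak3 (0.47, 0.58 and 0.54 on the log2 scale), so 4 members were then higher and 10 lower.

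**Figure D3:**
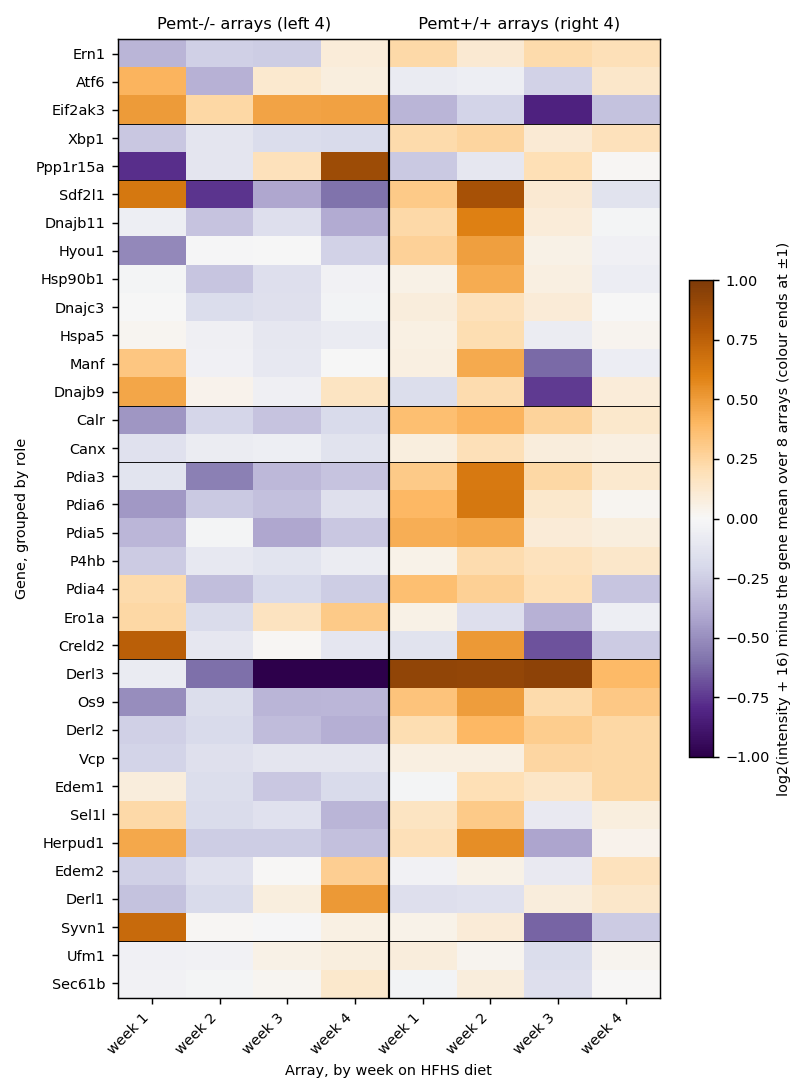
Level of each of the 34 genes on the 8 arrays, as log2(intensity + 16) minus the mean of the gene over the 8 arrays (orange, above the mean; colours end at -1 and 1), with Pemt-/- arrays on the left and Pemt+/+ arrays on the right. The Pemt+/+ column of week 2 is the highest of its genotype for 23 genes, and the Pemt-/- column of week 1 is the highest of its genotype for 17 genes and the lowest for 14.

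The Pemt-/- array of week 2 was the lowest of its genotype for 8 of the 34 genes, against 34.7% of all genes, while the Pemt+/+ array of week 2 was the highest of its genotype for 23 of the 34, against 25.8% of all genes. Relative to the other weeks of the same genotype, the median of the members was -0.09 at week 2 in Pemt-/- and 0.17 in Pemt+/+, on the log2 scale. Over all genes these medians were -0.05 and 0.00. The Pemt-/- array of week 1 was the highest of its genotype for 17 genes and the lowest for 14, against 26.4% and 25.6% of all genes, and the Pemt+/+ array of week 3 the lowest of its genotype for 15, against 26.1%. The summed intensity of the 34 genes was 261700, 241300, 242500 and 251800 at weeks 1 to 4 in Pemt-/-, against 292200, 331200, 272700 and 280800 in Pemt+/+. The highest of the 8 sums was thus the Pemt+/+ array of week 2, and the sums of the genotypes did not overlap.

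Heat shock genes that do not act in the ER were mostly below 0 at week 2 as well, on 1 array per genotype. Their list is headed cytosolic but also named the mitochondrial chaperones Hspd1 and Hspe1 and the transcription factor Hsf1. Of 17 tested, 16 were below 0 at week 2, against 49.2% of all genes, with a median of -0.28. The median was 0.07, 0.19 and -0.11 at weeks 1, 3 and 4. Over the 4 weeks 1 was called (Hspb1, higher, 0.69 ± 0.17 SE, adjusted p = 0.0271), against 12.6% of all genes called higher. Hspa1b, an inducible cytosolic Hsp70 chosen after its values were seen, read 8611, 6509, 6875 and 4729 in Pemt-/-, against 7227, 18707, 2262 and 5093 in Pemt+/+. The Pemt+/+ array of week 2 was by far the highest of the 8, and that of week 3 the lowest. The summed heat shock list was 104800 to 126500 on Pemt-/- arrays and 101300 to 165000.0 on Pemt+/+ arrays, highest on the Pemt+/+ array of week 2. Its part in the week 2 result was not tested.

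The change per week was fitted within each genotype. No member was called for a difference in slope between the genotypes (lowest adjusted p = 0.604), and no probe set of the array was. At an unadjusted p under 0.05 the slope was more positive in Pemt-/- for Pdia6, Calr and Ppp1r15a, against 4.27% of all genes, and more negative for Derl3, against 3.26%. In Pemt-/- alone, Ppp1r15a gained 0.53 ± 0.08 per week and Derl3 lost 0.45 on the log2 scale (-0.45 ± 0.08 SE), with adjusted p = 0.0582 and 0.0835. No member slope passed the threshold in Pemt-/-, where 0.0386% of all genes passed as higher and 0.0927% as lower, and none passed in Pemt+/+, members or other genes.

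The rest of the pathway was followed in lists of genes outside the 34, by the brightest probe set of each gene. The ATF4 and CHOP arm, which can act downstream of PERK, had 9 of 15 genes higher and none lower, against 12.6% and 7.51% of all genes, with a median log2 difference of 1.05. Psat1, an enzyme of serine synthesis, read 382, 209, 353 and 741 in Pemt-/-, against 60.2, 68.1, 71.4 and 133 in Pemt+/+ (2.06 ± 0.20 SE, adjusted p = 0.000850). The stress factor Atf3 and the pseudokinase Trib3 rose by 2.75 ± 0.29 and 2.21 ± 0.30 (SE). The median of this arm was 1.33, 0.46, 1.55 and 1.90 at weeks 1 to 4, so it was lowest at week 2, as it was for the 34 genes. No test compared the arm with the 34 genes, and whether PERK drove the arm was not tested.

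The other lists of the secretory pathway stand beside the same shares of all genes, 12.6% higher and 7.51% lower, and several of their counts lie near them. Of 26 other folding enzymes, 4 were lower, among them Tmx4 (-0.94 ± 0.12 SE, adjusted p = 0.00198), Ero1b and the cyclophilin Ppib, and 2 were higher. Of 20 genes of the translocon, the signal peptidase and the TRAP complex, 2 were lower (Sec63 and Ssr4) and none was higher, and 18 lay below 0 at week 2, against 49.2% of all genes. Of 18 genes of oligosaccharyl transferase and glycan trimming, 2 were higher (Ostc and Ost4) and 2 lower, among them Ganab. Among 20 other genes of ER-associated degradation only Erlin1 was called, as higher (0.42 ± 0.10 SE, adjusted p = 0.0222). COPII and ER-Golgi transport had 2 higher (Kdelr3 and Tmed3) and 1 lower (Sar1b) of 23. ER calcium genes had 5 higher, Rcn3 and Rcn2 among them, and 1 lower (Itpr2) of 14, and ufmylation had 1 lower (Ufsp1) of 6. The lists of other degradation genes, the translocon, oligosaccharyl transferase, other folding enzymes and COPII transport all had their lowest median at week 2, between -0.26 and -0.09, while ER calcium and ufmylation did not.

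**Figure D4:**
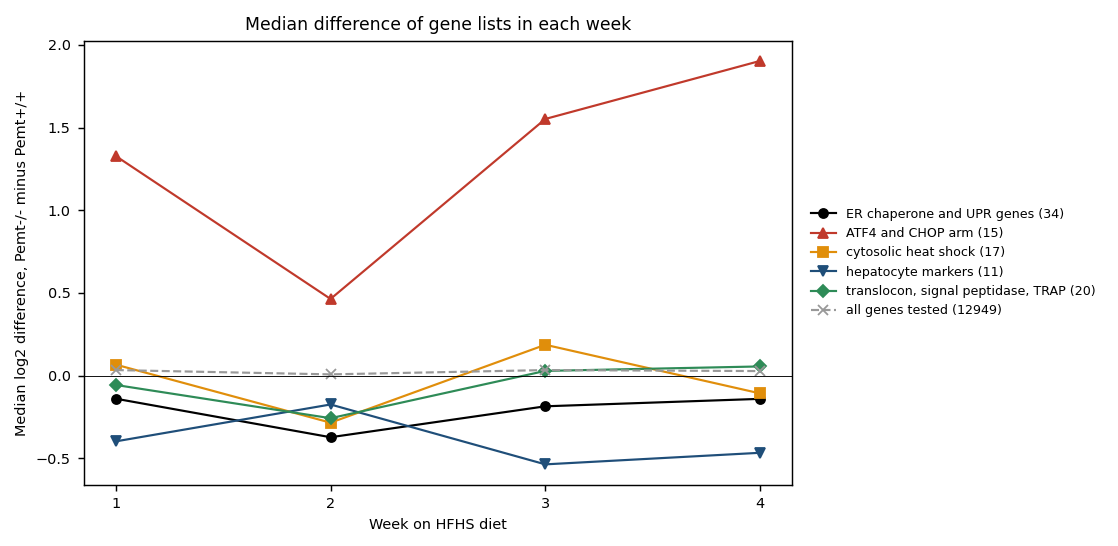
Median log2 difference (Pemt-/- minus Pemt+/+) in each week on the HFHS diet for the 34 genes and for other gene lists, with the number of genes tested in brackets. The 34 genes, the cytosolic heat shock genes, the translocon list and the ATF4 and CHOP arm each have their lowest median at week 2, as do several lists not drawn, and the hepatocyte markers have their highest.

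Marker genes of other cells moved with the genotype beside these results. The median log2 difference of the hepatocyte markers was -0.43, and within weeks it was -0.40, -0.17, -0.54 and -0.47, nearest to 0 at week 2. The medians of the macrophage markers (1.70, 1.30, 2.80 and 2.77 at weeks 1 to 4), the proliferation markers (3.11, 2.15, 3.91 and 3.72), the cholangiocyte markers (0.54, -0.11, 0.73 and 0.60) and the plasma and B cell markers (0.09, -0.16, -0.04 and -0.13) were lowest at week 2. Those of the stellate and myofibroblast markers (1.091, 1.155, 1.731 and 1.667) were lowest at week 1. The median of the sinusoidal endothelial markers (0.073, -0.232, -0.061 and -0.417) was lowest at week 4. That of the pancreatic acinar markers (-0.648, -0.625, -1.099 and -0.425) was lowest at week 3. Of 7 endothelial markers 3 were called lower and 0 higher, against 7.51% and 12.6% of all genes. The median log2 difference of the 7 over the 4 weeks was 0.031. The summed macrophage markers were 28540.0 to 44910.0 on Pemt-/- arrays and 11390.0 to 16650.0 on Pemt+/+ arrays, and the stellate and myofibroblast markers 41930.0 to 59520.0 and 14560.0 to 20560.0. Their part in the result of the 34 genes was not tested. Plasma cells and pancreatic acinar cells also use Derl3 and Xbp1. None of the 7 plasma and B cell markers tested was called, with sums of 9226 to 13700.0 in Pemt-/- and 9734 to 12190.0 in Pemt+/+, mostly from Sdc1, which hepatocytes express. The highest of these sums was on the Pemt-/- array of week 2, against 10360 on the Pemt+/+ array of that week. Of the acinar markers, Cela1 was lower (1316 and 2543 on average in Pemt-/- and Pemt+/+), while Prss2 and Cela2a were dim and not called and Cpa1, Cpb1 and Ctrb1 averaged at most 23.4 in either genotype.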

How the data were processed

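Liver RNA on 4 Pemt-/- and 4 Pemt+/+ arrays, 1 per genotype and week, was used. The authors deposited linear probe set intensity from Affymetrix Expression Console (version and summarisation method not given in the sources used here), scaled to a 2% trimmed mean of 500.0. Without 64 control probe sets, values were transformed as log2(intensity + 16), so that fold changes understate dim genes. The 27022 probe sets above the 40th percentile of mean were tested with limma 3.58.1 in R 4.3.3 (week as a factor, which pairs the arrays, plus genotype; eBayes with a trend, two-sided, Benjamini-Hochberg). Further fits set each week against the other 3 and gave slopes per week. Fits were also run on simulated data with independent noise and planted differences larger than those of most members. That run does not check the fits at the size of difference seen here. Array values were given for members called in any probe set or fit and the 8 largest week 2 differences, and at most 3 genes per other list were named, by p. Members, lists and the focus on week 2 were chosen with earlier results of these data known, and no set test was run. Alternatives changed the filter, pseudocount, normalization, trend, probe set rule, week term and test, or left out each week.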

Additional observations from a re-analysis of the deposited data

Results flagged for a closer look

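Within the 4 arrays of a genotype, 6 of 68 groups examined held 1 array far from the other 3, by its gap to the nearest array over the range of the group on the log2 scale. Chance gives about 1 in 20 such groups. The Pemt-/- array of week 1 was high in 3 genes: Herpud1 read 12600 there and 7440 to 7720 at the other weeks, Creld2 read 5680 and 3090 to 3370, and the ligase Syvn1 read 6540 and 3960 to 4170. Eif2ak3 read 1590 on the Pemt-/- array of week 2 and 1880 to 1920 on the other Pemt-/- arrays. Derl3 read 768 on the Pemt+/+ array of week 4 and 1120 to 1140 on the other Pemt+/+ arrays. Canx read 19500 on the Pemt+/+ array of week 2 and 17800 to 18100 on the others. Each week held 1 array per genotype, so an array that stands apart and a change with time cannot be told apart.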

How the results depend on the processing

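The number of members called lower, 12, was 6 under quantile normalization, 3 with eBayes without the intensity trend and between 4 and 10 without each week in turn (4 without week 3). The number called higher, 1, was between 1 and 4 without each week, 4 without week 2. Of the 13 genes called in their brightest probe set, 5 were kept without each week (Eif2ak3, Calr, Derl2, Derl3 and Os9) and 3 under every setting (Derl2, Derl3 and Os9). P4hb turned under quantile normalization (0.009, adjusted p = 0.947) and Vcp with the mean of its probe sets (0.112, adjusted p = 0.521). Without the pairing by week in the model (no replicate block), 12 members were lower and 1 higher. The methods' t-test, unpaired, called 15 lower and 1 higher at their threshold, an unadjusted p under 0.05, and 9 and 1 after Benjamini-Hochberg adjustment. The methods give it as a general test, while the authors picked genes from these arrays by a genotype ratio above 2 or below 0.5 in each week. At an unadjusted p under 0.05 the main fit had 16 members lower and 2 higher, against 15.1% and 21% of all genes. The shares of all genes called by the t-test and under the other settings were not counted. The number below 0 at week 2 was 28 with each array centred on its median and 31 to 33 otherwise. The week 2 fit called 0 to 2 members lower without each other week, 2 without week 1. Centring on the probe sets tested was chosen after seeing the data. Xbp1 was -0.173 under quantile normalization (adjusted p = 0.145), Ern1 -0.08 (adjusted p = 0.792) and Pdia6 -0.284 (adjusted p = 0.286) with the mean of their probe sets. The cause of these changes was not tested. No detection calls were used, so dim probe sets are limited by signal over background, and a p that misses the threshold does not show equal levels.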
